A study of Mus musculus with 899 samples.

Results

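The microRNAs (miRNA) mmu-miR-216a-5p, mmu-miR-217-5p and mmu-miR-216b-5p, written without the species prefix from here on, are the main products of 3 neighbouring hairpins on mouse chromosome 11, and they were chosen here by name, as 3 of the 1915 miRNA counted in plasma. All 3 were measured in each of 899 plasma samples from 196 mice, and all 3 passed the filter on low counts that left 483 miRNA for testing. Before irradiation the 3 were lower in C57Bl/6 than in C3H mice, least firmly for miR-216b-5p. They were higher in irradiated than in sham C57Bl/6 mice from month 1 to month 6 in most comparisons, while in C3H mice no difference between irradiated and sham mice passed the test at any time point.

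Mice of the C3Hf/Sed/Kam (C3H) and C57Bl/6 strains were given whole thorax lung irradiation (WTLI) in 1 dose, or a sham procedure, as young adults of both sexes. Of the C3H animals 64 were irradiated and 32 were shams, and of the C57Bl/6 animals 68 and 32. The same animals were bled before irradiation, at day 2 or day 5, and monthly until month 4 in C3H and month 6 in C57Bl/6. A mouse gave at most 1 of the day 2 and day 5 samples. The sample codes hold a group code that they do not explain, and it was read here as 2 cohorts of both treatments and both sexes. The samples past month 1 all came from cohort 1. Each sample held between 206490 and 11814515 miRNA reads (median 1475030). For 4 irradiated C57Bl/6 females of cohort 1 there was no sample before irradiation, nor at day 2 or day 5. Per the study's methods, plasma with excess hemolysis by light absorbance was left out. In the samples kept, 5 red blood cell miRNA made up between 0.618% and 14.65% of the reads of a sample.

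miRNA are short RNAs of about the length of those printed here that guide Argonaute proteins to messenger RNAs, mainly through the seed near their 5′ end, and lower the output of those messengers. miR-216a, miR-216b and miR-217 are known for high levels in the acinar cells of the exocrine pancreas, the cells that make digestive enzymes, and for low levels in most other tissues. In rodents they are used as plasma markers of injury to these cells, because miRNA released from cells circulate in the blood bound to proteins or inside vesicles. Plasma holds RNA from many organs, so the number of cells releasing a miRNA and the amount released per cell cannot be told apart here.

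The mature sequences are printed to show how alike the 3 are, with the seed (bases 2 to 8) in capitals, from RefSeq on build GRCm38.p6.
miR-216a-5p: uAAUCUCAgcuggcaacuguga
miR-216b-5p: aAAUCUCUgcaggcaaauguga
miR-217-5p: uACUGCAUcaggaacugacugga

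miR-216a-5p (chr11:28757018-28757039, plus strand) and miR-216b-5p (chr11:28746204-28746225, plus strand) were identical at 18 of 22 positions (81.8%). Counted from the 5′ end, with the base of miR-216a-5p first, they differed by U1A, A8U, U11A and C17A. They shared bases 2 to 7 and differed in the last base of the seed, and no other of 1623 miRNA matched to RefSeq by name had the 7-base seed of either. miR-217-5p (chr11:28763761-28763783, plus strand) was identical to each of the other two at 6 of 22 aligned positions (27.3%), and its seed was shared by no other of the 1623.

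The 3 hairpins spanned 17645 bases in the order Mir216b, Mir216a and Mir217, with 10735 bases between the first 2 and 6644 bases between the last 2. Mir216a and Mir217 lay in an intron of the long non-coding RNA gene Gm12082 on the same strand, and Mir216b overlapped Mir216c, annotated on the opposite strand. Counts came almost wholly from the 5p arms: miR-216a-5p had 31364 reads over all samples, miR-217-5p 4687 and miR-216b-5p 1046. The opposite arms had 31 reads for miR-216a-3p, 7 for miR-217-3p and 97 for miR-216b-3p, too few to pass the filter. Both arms of miR-216c, of which one is complementary to miR-216b-5p over 17 bases, had 0 reads in all 899 samples.

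These are low-abundance miRNA in plasma, and the level of each sets what could be seen. By mean CPM (counts per 1e6 reads of a sample's normalized library size), miR-216a-5p ranked 204 of 483 miRNA tested at 19.1 CPM, miR-217-5p 328 at 2.93 CPM and miR-216b-5p 467 at 0.664 CPM. At least 1 read of miR-216a-5p was found in 830 samples, of miR-217-5p in 610 and of miR-216b-5p in 240. The CPM scale is relative, so a higher CPM of one miRNA and lower amounts of all others cannot be told apart.

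Ordered by median miR-216a-5p level, the first 4 of the 32 groups were irradiated C57Bl/6 mice of months 6, 3, 5 and 2 (29.4 to 43.7 CPM), and irradiated C57Bl/6 mice of month 4 were at rank 7, among the C3H groups. In C3H the 14 group medians lay between 17.8 and 29.1 CPM, and 401 of 402 samples had a read. The exception was the month 3 sample of an irradiated C3H female with 0 of 1249082 reads, whose other samples had 7 to 67 reads. In C57Bl/6 sham mice the 9 group medians lay between 0.448 and 5.48 CPM, below every C3H median. Neighbouring C3H groups in that order did not differ beyond their spread, since their standard deviations on the log2 CPM scale were 0.416 to 1.06.

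Before irradiation the strains differed for all 3 miRNA. The 64 C57Bl/6 mice to be irradiated had 0, 2.86 and 24.5 CPM of miR-216a-5p as the lowest, median and highest sample, and their 32 shams 0, 3.72 and 19.6 CPM. The 64 C3H mice to be irradiated had 2.98, 18.4 and 98.9 CPM, and their 32 shams 1.59, 17.8 and 48.0 CPM. The ranges of the strains overlapped, with the medians of both C3H groups near the top of the C57Bl/6 values.

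In log2 terms, C57Bl/6 minus C3H was -2.12 ± 0.19 (SE) for miR-216a-5p (edgeR quasi-likelihood test, adjusted p = 1.71e-26) and -1.63 ± 0.28 for miR-217-5p (adjusted p = 4.28e-08). For miR-216b-5p it was -0.99 ± 0.37 (adjusted p = 0.017), the mean of -0.02 ± 0.69 between the shams and -1.96 ± 0.44 between the mice to be irradiated. Strain differences before irradiation were common, with 50.7% of the 483 miRNA called. The call for miR-216b-5p was lost in limma-voom (-0.22, adjusted p = 0.368). Adding the mouse there as a random replicate block left the difference at -0.23 (adjusted p = 0.366). This is no separate check, since a mouse gave at most 1 sample before irradiation. Before irradiation no difference between mice to be irradiated and shams passed the test for any of the 3 in either strain. The largest was in miR-216b-5p of C3H, at 1.03 ± 0.50 (adjusted p = 0.695).

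miR-216a-5p in C57Bl/6 mice was not called at day 2 or day 5 in the edgeR test of both sexes. At day 2 the 16 sham samples had 0, 1.25 and 8.04 CPM as lowest, median and highest, and the 32 irradiated samples 0, 4.0 and 22.4 CPM. At day 5 the 16 sham samples had 0, 0.448 and 11.7 CPM and the 32 irradiated samples 0, 4.67 and 28.2 CPM. The ranges overlapped at both times and both groups held samples with no read. The log2 difference was 1.04 ± 0.42 at day 2 (adjusted p = 0.117) and 1.12 ± 0.44 at day 5 (adjusted p = 0.069), where 2.28% and 6.21% of all miRNA were called higher. Their mean, 1.08 ± 0.30, passed the test (adjusted p = 0.0054, with 13.3% of miRNA called in either direction). Day 5 was called after quantile normalization in limma (0.96, adjusted p = 0.0357), and both days in DESeq2.

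From month 1 the irradiated C57Bl/6 mice had higher miR-216a-5p at all 6 time points. At month 1 the 32 sham samples had 0, 3.99 and 15.9 CPM and the 68 irradiated samples 2.91, 15.0 and 77.2 CPM. The irradiated samples exceeded the sham median in 65 of 68 and the highest sham sample in 32 of 68. The log2 difference was 2.07 ± 0.27 (adjusted p = 1.38e-11), at a time when 1.66% of miRNA were called higher.

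At month 2 the 16 sham samples had 0, 4.19 and 14.7 CPM and the 36 irradiated samples 1.38, 29.4 and 143 CPM. Of the irradiated samples 29 of 36 lay above the highest sham sample. The difference was 3.06 ± 0.40 (adjusted p = 1.43e-11, with 2.28% of miRNA called higher).

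At month 3 the 16 sham samples had 0, 4.63 and 35.3 CPM and the 31 irradiated samples 1.64, 37.8 and 136 CPM. At month 4 the 16 sham samples had 0, 5.48 and 22.1 CPM and the 29 irradiated samples 0, 24.5 and 92.1 CPM. In these months 17 of 31 and 16 of 29 irradiated samples lay above every sham sample. The differences were 2.43 ± 0.38 (adjusted p = 4.81e-08) and 2.30 ± 0.38 (adjusted p = 6.55e-07), with 1.24% and 3.11% of miRNA called higher.

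At month 5 the 16 sham samples had 0, 5.00 and 122 CPM and the 21 irradiated samples 4.75, 35.2 and 97.8 CPM. The highest sham sample, from a female, held 188 reads of miR-216a-5p and 37 of miR-217-5p, while her other 7 samples held 0 to 18 and 0 to 3. It lay above all 21 irradiated samples, of which 20 exceeded the sham median. The difference was 1.53 ± 0.37 with that sample (adjusted p = 0.00284, with 2.48% of miRNA called higher) and 2.63 ± 0.40 without it (adjusted p = 1.48e-08).

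At month 6 the 16 sham samples had 1.92, 4.27 and 13.9 CPM. The 8 irradiated samples, the last mice followed, had 0, 43.7 and 70.9 CPM. In 7 of the 8 the level was 26.3 CPM or more, above every sham sample, and the remaining one had 0 of 2239071 reads. That mouse, a female, had 0 reads before irradiation and 4.18 to 16.9 CPM at months 1 to 5. The difference was 3.03 ± 0.46 (adjusted p = 2.7e-08), where 0.414% of miRNA were called higher, that is 2 of 483, and both miR-216a-5p and miR-217-5p passed.

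**Figure D1:**
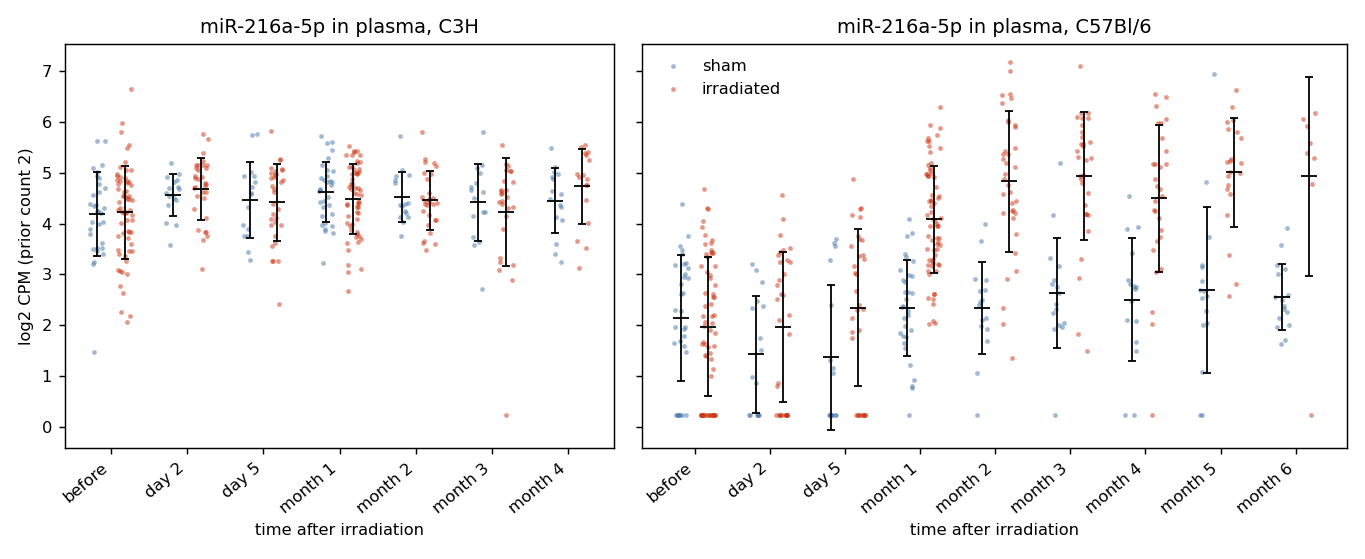
miR-216a-5p in every plasma sample of C3H (left) and C57Bl/6 mice (right), as log2 CPM on the vertical axis against time on the horizontal axis, with sham samples in blue, irradiated samples in red, and black bars for mean ± SD. C3H groups lie level, whereas irradiated C57Bl/6 mice lie above their shams from month 1, and the points at the bottom are samples with no read.

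Measured against each mouse's own sample before irradiation, the rise in miR-216a-5p was seen in nearly every irradiated C57Bl/6 mouse. At month 1, 57 of 64 mice were above their own earlier level, with a median change of 1.98 on the log2 scale. The counts were 31 of 32 at month 2, 27 of 27 at month 3, 22 of 25 at month 4, 18 of 18 at month 5 and 7 of 8 at month 6, and the median changes were 2.58 to 3.58. Among the shams of the same strain, 20 of 32 mice were above their own level at month 1, and between 10 and 12 of 16 at months 2 to 6, with median changes of 0.22 to 1.15. With the mouse as a fixed replicate block, which tests the change from the own earlier sample, irradiated minus sham also passed at day 5 (1.66, adjusted p = 0.0405).

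**Figure D2:**
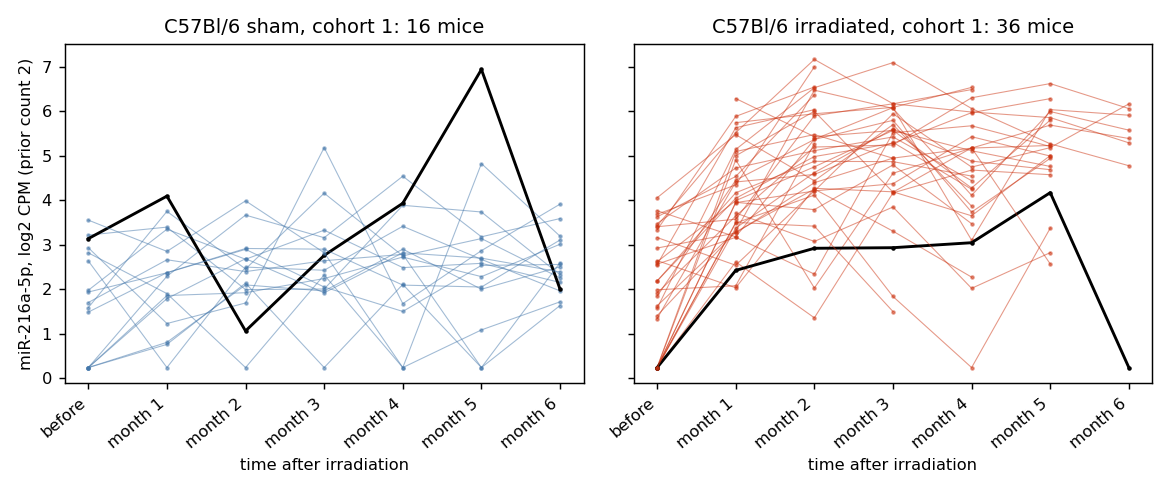
miR-216a-5p by mouse in C57Bl/6 cohort 1, with log2 CPM on the vertical axis, time on the horizontal axis and 1 line per mouse, for 16 sham mice (left) and 36 irradiated mice (right). The black lines are the sham female with 188 reads at month 5 and the irradiated female with 0 reads at month 6.

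Levels of miR-216a-5p in irradiated C57Bl/6 mice were related between consecutive months up to month 4. Of 21 relations between consecutive months in irradiated mice (3 miRNA, both strains), 3 passed after adjustment by Pearson's r and 2 of these also by Spearman's rho, all in miR-216a-5p of C57Bl/6. From month 1 to month 2, Pearson's r was 0.49 and Spearman's rho 0.56 over 36 mice (permutation test, adjusted p = 0.0174 and 0.0064), and r was 0.503 without the 2 mice farthest from the median. From month 2 to month 3, r was 0.547 and rho 0.675 over 31 mice (permutation test, adjusted p = 0.0164 and 0.00189), and r was 0.593 without 2 mice. From month 3 to month 4, r was 0.681 and rho 0.471 over 29 mice (permutation test, adjusted p = 0.00357 and 0.0586), and r was 0.487 without 2 mice. From month 4 to month 5, r was 0.536 over 21 mice (permutation test, adjusted p = 0.0586) and 0.205 without 2 mice. No relation passed for miR-217-5p or miR-216b-5p. These mice all belonged to cohort 1. In C3H, r for miR-216a-5p lay between -0.081 and 0.231 over 17 to 28 mice, and whether the strains differ in this was not tested.

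Whether an irradiated C57Bl/6 mouse was sampled again the next month was not related to its level at a passing test. At month 5 the 13 mice with no later sample had a median of 29.6 CPM of miR-216a-5p and the 8 with one 53.8 CPM, a log2 difference of -0.97 (exact permutation test, p = 0.0388, adjusted p = 0.194 over 9 tests). At month 4 the 8 mice with no later sample and the 21 with one differed by -0.02 (exact permutation test, p = 0.977). At month 3 only 2 mice had no later sample, and they differed from the 29 with one by -1.84 (exact permutation test, p = 0.043, adjusted p = 0.194).

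miR-217-5p, from the third hairpin of the cluster, was also higher in irradiated C57Bl/6 mice at 5 of the 6 months, at lower counts. From month 1, 155 of 193 irradiated samples and 53 of 112 sham samples had at least 1 read. At day 2 and day 5 a read was found in 6 of 32 and 7 of 32 irradiated samples, and in 4 of 16 and 3 of 16 sham samples. The log2 differences at those days were 0.14 ± 0.69 and -0.04, neither of which passed.

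At month 1 the 32 sham samples had 0, 0.095 and 3.41 CPM of miR-217-5p and the 68 irradiated samples 0, 2.42 and 32.9 CPM. At month 2 the 16 sham samples had 0, 0.690 and 3.92 CPM and the 36 irradiated samples 0, 5.44 and 29.9 CPM. At both times irradiated samples with no read lay within the sham range, and 24 of 68 and 22 of 36 lay above every sham sample. The differences were 1.83 ± 0.40 (adjusted p = 0.000372) and 2.65 ± 0.58 (adjusted p = 0.000977). The month 1 call was lost with the mouse as a fixed replicate block (1.52, adjusted p = 0.0908).

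At month 3 the 16 sham samples had 0, 0 and 4.37 CPM of miR-217-5p and the 31 irradiated samples 0, 3.86 and 9.71 CPM, a difference of 2.51 ± 0.59 (adjusted p = 0.00156). At month 4 the 16 sham samples had 0, 0 and 6.12 CPM and the 29 irradiated samples 0, 5.60 and 14.3 CPM, a difference of 1.80 ± 0.56 (adjusted p = 0.0324). In both months most shams had no read, and 12 of 31 and 14 of 29 irradiated samples lay above every sham.

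At month 5 the 16 sham samples had 0, 0.748 and 24.0 CPM of miR-217-5p, the highest being the sham female named above, and the 21 irradiated samples 0, 6.93 and 18.9 CPM. The difference of 1.16 ± 0.55 did not pass (adjusted p = 0.277). Without that sham sample it was 2.05 ± 0.59 (adjusted p = 0.0183), and in limma-voom with that sample it was 2.09 (adjusted p = 0.00142). Adding the mouse there as a random or fixed replicate block gave 2.11 (adjusted p = 0.000968) and 2.24 (adjusted p = 0.0102). At month 6 the 16 sham samples had 0, 0 and 1.92 CPM and the 8 irradiated samples 0, 7.74 and 13.4 CPM, with 7 of 8 above every sham. The difference was 3.91 ± 0.71 (adjusted p = 9.84e-06).

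**Figure D3:**
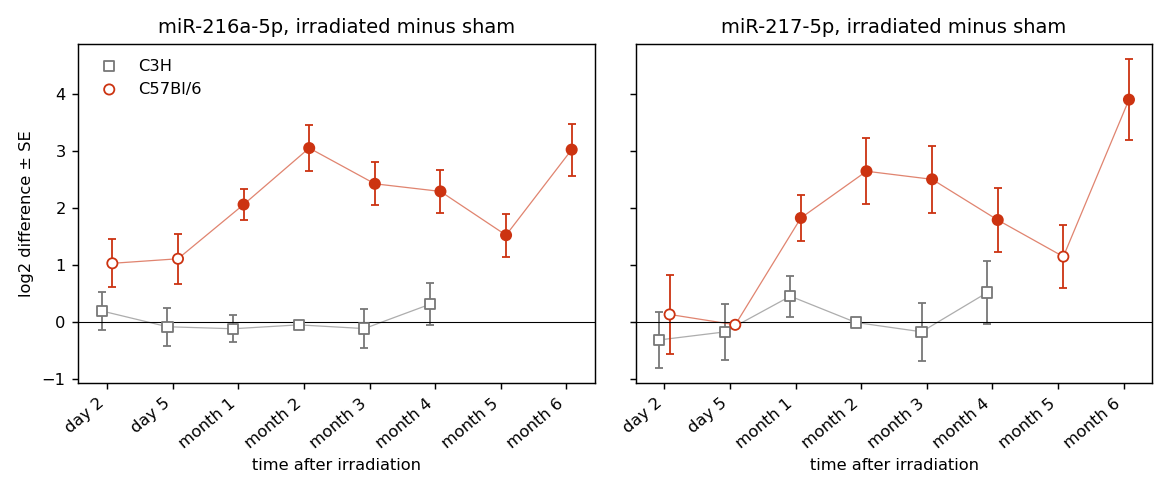
Log2 difference irradiated minus sham ± SE (vertical axis) by time (horizontal axis) for miR-216a-5p (left) and miR-217-5p (right), with C57Bl/6 as red circles and C3H as grey squares, filled where the adjusted p was under 0.05. miR-216a-5p passed at months 1 to 6 and miR-217-5p at 5 of those 6 times in C57Bl/6, no C3H point passed, and points within 0.05 of 0 are drawn without SE because the SE was taken from the test statistic.

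miR-216b-5p was at the limit of detection in C57Bl/6. From month 1, a read was found in 3 of 112 sham samples (13 reads in all) and in 57 of 193 irradiated samples (238 reads in all). The share of irradiated samples with a read was 11 of 68 at month 1, 16 of 36 at month 2, 10 of 31 at month 3, 8 of 29 at month 4, 10 of 21 at month 5 and 2 of 8 at month 6. Median depth over those months was 1276776 to 2098739 reads in the irradiated and 1495616 to 1780748 reads in the sham C57Bl/6 groups.

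At month 2 the sham samples held 2 reads and the irradiated samples 70 reads of miR-216b-5p, and the log2 difference was 3.21 ± 0.82 (adjusted p = 0.0057). The sham samples of months 4, 5 and 6 held 0 of 26851105, 0 of 26074956 and 0 of 36735815 reads, which allows up to 0.112, 0.115 and 0.0817 CPM (3 counts over the group, counting error only). The irradiated samples of those months held 35, 37 and 11 reads. Pooled over the group, their CPM was 5.89, 9.70 and 6.10 times those limits. The irradiated counts were taken as exact in this, so the values are no lower bounds.

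The edgeR test passed for miR-216b-5p at month 4 (adjusted p = 0.00315) and month 5 (adjusted p = 0.000178). It did not pass at month 1 (1.62 ± 0.54, adjusted p = 0.0708), month 3 (2.25 ± 0.75, adjusted p = 0.112) or month 6 (adjusted p = 0.0738). A single irradiated sample gave 11 of 37 reads at month 1 and 6 of 11 reads at month 6. In limma-voom month 4 was not called (adjusted p = 0.263 with no block, 0.269 with the mouse as a random and 0.368 as a fixed replicate block). Month 2 was called there with no block (adjusted p = 0.0415) and not with the fixed block (adjusted p = 0.242), and quantile-normalized log2 values tested in limma gave none of the 3. Shams had 5 of 32 samples with a read before irradiation, and irradiated mice 7 of 64.

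**Figure D4:**
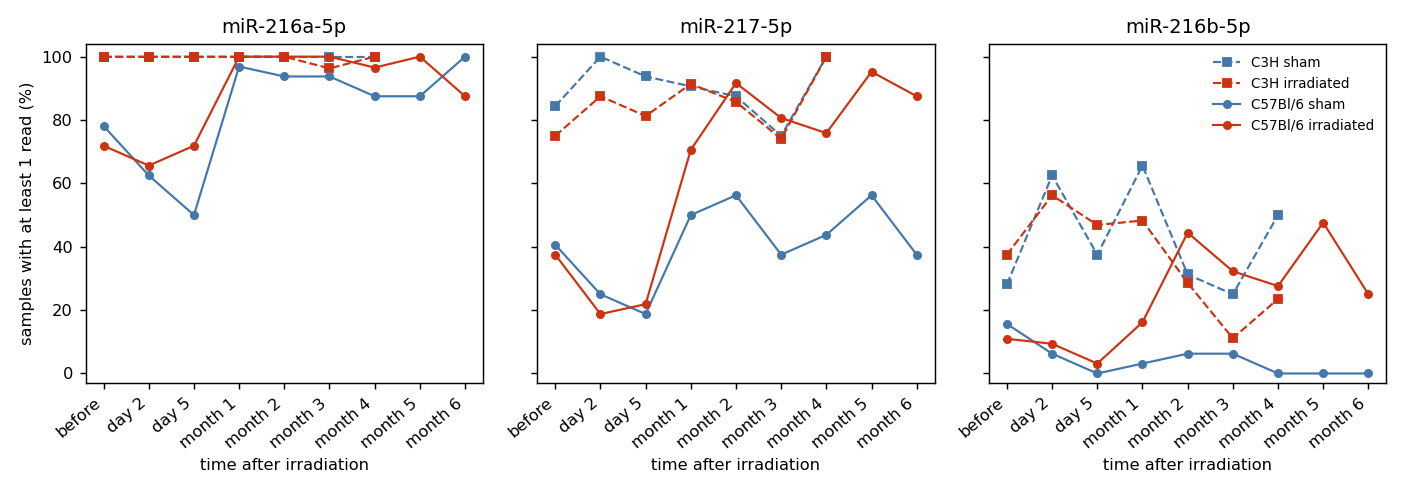
Share of samples with at least 1 read (vertical axis, percent) by time (horizontal axis) for miR-216a-5p, miR-217-5p and miR-216b-5p, with C57Bl/6 as solid lines with circles, C3H as dashed lines with squares, sham in blue and irradiated in red. For miR-217-5p and miR-216b-5p the irradiated C57Bl/6 line leaves the sham line at month 1, and for miR-216b-5p no sham sample of months 4 to 6 had a read.

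In C3H mice the same comparisons gave no call for any of the 3 miRNA at any of 6 time points. The share of miRNA called in either direction was 4.97% at day 2, 3.11% at day 5, 3.31% at month 1, 0.621% at month 2, 2.07% at month 3 and 0.414% at month 4. For miR-216a-5p the log2 differences lay between -0.11 and 0.32, with SE of 0.24 to 0.37. At month 1 the 32 sham samples had 8.12, 24.4 and 51.5 CPM and the 58 irradiated samples 5.24, 22.8 and 45.1 CPM. At month 4 the 16 sham samples had 8.35, 22.0 and 43.7 CPM and the 17 irradiated samples 7.55, 29.1 and 45.6 CPM. The ranges coincided nearly in full at both times.

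For miR-217-5p in C3H the group medians lay between 1.38 and 4.20 CPM, and the log2 differences between -0.31 and 0.52. miR-216b-5p, with a read in 163 of 402 C3H samples, had differences between -1.67 and 0.44. The value of -1.67 ± 0.71 was that of month 4 (unadjusted p = 0.0182, adjusted p = 0.382), with a read in 8 of 16 sham and 4 of 17 irradiated samples. With the mouse as a fixed replicate block it passed as a fall of 2.25 on the log2 scale (adjusted p = 0.0351).

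Tested over all time points at once, irradiation changed all 3 miRNA in C57Bl/6 over 8 time points, where 25.3% of miRNA were called. The adjusted p was 5.48e-44 for miR-216a-5p, 2.05e-16 for miR-217-5p and 3.79e-13 for miR-216b-5p, the last lost with the fixed replicate block (adjusted p = 0.173). In C3H, over 6 time points and with 15.5% of miRNA called, it was 1, 0.965 and 0.462.

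The difference between the strains in the irradiation effect was itself tested over the 6 shared time points, and it passed for all 3. The adjusted p was 1.54e-20 for miR-216a-5p, 0.000292 for miR-217-5p and 1.07e-06 for miR-216b-5p, in a test that called 21 of 483 miRNA (4.35%). With the fixed replicate block it did not pass for miR-217-5p (adjusted p = 0.432), while miR-216b-5p was at 0.0495. The extra log2 change in C57Bl/6 over C3H for miR-216a-5p was 0.84 ± 0.53 at day 2, 1.19 ± 0.54 at day 5, 2.18 ± 0.35 at month 1, 3.10 ± 0.50 at month 2, 2.54 ± 0.49 at month 3 and 1.98 ± 0.52 at month 4. In the edgeR test it passed at months 1 to 4 and not at day 2 or day 5. For miR-217-5p it passed at no single time point (lowest adjusted p = 0.0658, at month 3). For miR-216b-5p it passed at month 4 only (5.09 ± 1.09, adjusted p = 0.00168), where the C57Bl/6 shams had 0 reads.

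A lower level in C57Bl/6 was seen at months 1 to 4 in the shams but not in the same form in the irradiated mice. Among shams miR-216a-5p was lower in C57Bl/6 by -2.36 ± 0.29 at month 1 (adjusted p = 2.13e-13), -2.27 ± 0.42 at month 2 (adjusted p = 1.05e-05), -1.65 ± 0.40 at month 3 (adjusted p = 0.00102) and -1.82 ± 0.40 at month 4 (adjusted p = 0.000108). The share of miRNA that differed between the sham groups was 25.3%, 10.4%, 11.0% and 29.8% in these months. Among irradiated mice C57Bl/6 minus C3H was -0.18 ± 0.19 at month 1 (adjusted p = 0.496) and 0.16 ± 0.33 at month 4 (adjusted p = 0.788). It was 0.83 ± 0.28 at month 2 (adjusted p = 0.0149) and 0.89 ± 0.29 at month 3 (adjusted p = 0.0124), with C57Bl/6 higher. The share called between irradiated groups was 36.0%, 23.0%, 23.2% and 21.9%. miR-217-5p of irradiated C57Bl/6 was higher than of irradiated C3H at month 2 (1.14 ± 0.42, adjusted p = 0.032), and miR-216b-5p was lower at month 1 (-1.37 ± 0.40, adjusted p = 0.00313) and higher at month 3 (1.77 ± 0.61, adjusted p = 0.0204).

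The irradiation effect in C57Bl/6 changed over time for all 3 miRNA, with an adjusted p of 0.0088 for miR-216a-5p, 0.00888 for miR-217-5p and 0.00243 for miR-216b-5p (12.2% of miRNA called). In C3H it was 1 for each (2.69% called). For miR-216b-5p the C57Bl/6 shams of day 5 and of months 4, 5 and 6 had 0 reads. The size of its effect at those times, and so of its change, is not fixed by the data. The mean effect of months 1 to 6 minus that of days 2 and 5 was 1.33 ± 0.35 for miR-216a-5p and 2.26 ± 0.59 for miR-217-5p (adjusted p = 0.00304 for each, with 8.90% of miRNA called). For miR-216b-5p it had no usable SE and is not given. The SE and tests of these means treat repeat samples of a mouse as independent. Days 2 and 5 held both cohorts, and months 2 to 6 held cohort 1 only.

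Sham levels also changed with time in C57Bl/6, where 62.9% of miRNA were called. The adjusted p was 2.27e-06 for miR-216a-5p, 0.000396 for miR-217-5p and 7.63e-06 for miR-216b-5p. Without the month 5 sample of the sham female it was 0.041 for miR-216a-5p and 0.0784 for miR-217-5p. For miR-216b-5p, 5 of 32 shams had a read before irradiation and 3 of 112 from month 1. In C3H shams the test over all times did not pass for miR-216a-5p, miR-217-5p or miR-216b-5p (adjusted p = 0.969, 0.981 and 0.0824), with 46.0% of miRNA called. At month 1 alone miR-216b-5p of C3H shams was higher than before irradiation (1.39 ± 0.55, adjusted p = 0.0378, with 32.1% of miRNA called).

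Sex and cohort were looked at separately. The sex difference in the irradiation effect did not pass in C57Bl/6 (adjusted p = 0.194 for miR-216a-5p, 0.404 for miR-217-5p and 0.0561 for miR-216b-5p, with 6.63% of miRNA called) or in C3H (adjusted p = 1 for each, 0.621% called). In C57Bl/6 the miR-216a-5p difference was 1.91 ± 0.63 in females and 0.28 ± 0.57 in males at day 2, and 2.27 ± 0.71 and 0.47 ± 0.57 at day 5. The females passed at both days (adjusted p = 0.033 and 0.0168, with 3.93% and 5.80% of miRNA called higher), the males at neither. From month 1 to month 4 it was 2.19 to 3.23 in females and 1.77 to 2.56 in males. At month 5, where the sham female stood apart, it was 0.57 ± 0.52 in females and 2.53 ± 0.53 in males. At month 1, the last time with samples of both cohorts, it was 2.11 ± 0.39 within cohort 1 and 2.03 ± 0.33 within cohort 2.

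miR-216a-5p made up most of the reads of the 3 in every set of samples. Of the pooled reads of the 3, miR-216a-5p made up 83.8% in C3H shams, 84.1% in irradiated C3H mice, 83.2% in C57Bl/6 shams and 85.7% in irradiated C57Bl/6 mice from month 1. Per read of miR-217-5p there were 6.83, 6.56, 5.61 and 6.94 reads of miR-216a-5p in these sets. Per read of miR-216b-5p there were 21.2, 27.6, 41.7 and 45.0 reads of miR-216a-5p, so miR-216b-5p took a smaller share in these C57Bl/6 sets. The sets held 361, 384, 40 and 238 reads of miR-216b-5p, of which 1 C3H sham sample of month 4 gave 81. In irradiated C57Bl/6 mice from before irradiation to day 5 the ratio was 31.6, on 23 reads of miR-216b-5p. These ratios carry the ligation and sequence preferences of the library and are no molar ratios.

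Across samples, after the mean of each group was removed, miR-216a-5p and miR-217-5p had a Pearson's r of 0.574 over the 193 irradiated C57Bl/6 samples from month 1, against 0.121 over the 176 C57Bl/6 sham samples of all times. For miR-216b-5p with miR-216a-5p and with miR-217-5p it was 0.333 and 0.318 in the same 193 samples. These samples shared mice, and counts near 0 limit such values, most in the shams.

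**Figure D5:**
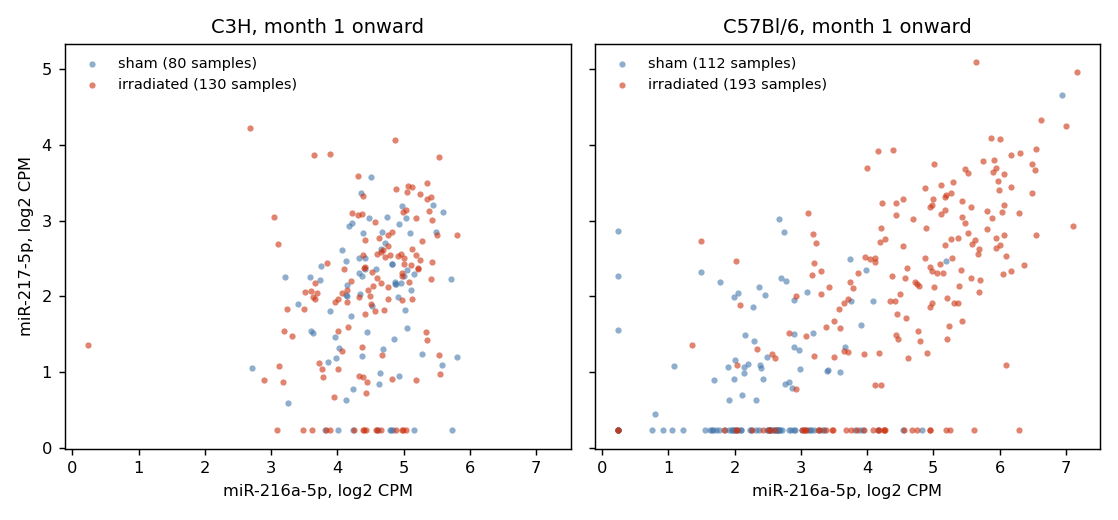
miR-217-5p (vertical axis, log2 CPM) against miR-216a-5p (horizontal axis, log2 CPM) in samples of month 1 and later for C3H (left) and C57Bl/6 (right), with sham samples in blue and irradiated samples in red. Irradiated C57Bl/6 samples spread along a diagonal above most shams, and points at the lower edge had no read of miR-217-5p.

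Over all 899 samples with group means removed, the 5 miRNA most like miR-216a-5p among 482 compared were miR-126a-5p (r = 0.357), miR-215-5p (0.336), miR-34a-5p (0.328), miR-215-3p (0.305) and miR-192-5p (0.302). miR-217-5p was most like miR-216a-5p (0.289), followed by miR-21a-5p (0.189), miR-215-5p (0.186), miR-375-3p (0.153) and miR-216b-5p (0.137). miR-216b-5p had no value above 0.144, with miR-451a first, then miR-215-5p, miR-217-5p, miR-132-3p and miR-216a-5p. All of these are weak.

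Other miRNA known from the pancreas, 5 in all, were called higher in irradiated C57Bl/6 mice at fewer times than miR-216a-5p, miR-802-5p most often. mmu-miR-375-3p, known from islets and other endocrine cells, was higher by 2.37 ± 0.19 at day 2 (adjusted p = 7.38e-30) and 1.22 ± 0.18 at day 5 (adjusted p = 2.34e-09). From month 1 to month 6 its differences were between -0.02 and 0.31 and none passed. miR-7a-5p, also of endocrine cells, passed as lower at day 2 and higher at month 1 only, and miR-148a-3p and miR-7b-5p passed at no time point. mmu-miR-802-5p, present in liver and pancreas, passed at day 2 (2.04 ± 0.38) and at months 2 (1.17 ± 0.34), 4 (1.88 ± 0.36) and 5 (2.35 ± 0.38). Of the 5, the number called higher was 1, 1, 0, 1, 1 and 0 from month 1 to month 6. Over all miRNA tested the share called higher was 1.66%, 2.28%, 1.24%, 3.11%, 2.48% and 0.414%. The median log2 difference of the 5 lay between -0.06 and 0.23, against -0.08 to 0.01 over all miRNA tested.

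Liver miRNA moved in part with the cluster. Of 4 listed (miR-122-5p, miR-122-3p, miR-192-5p and miR-194-5p) the number called higher in irradiated C57Bl/6 was 0, 2, 1, 2, 4 and 0 from month 1 to month 6, and none was called lower. The share of all miRNA tested that was called higher lay between 0.414% and 3.11% in these months. The 4 did not move together early: 1 was called higher (miR-192-5p) and 1 lower at day 2, and 1 higher and 2 lower at day 5. Over all miRNA tested 2.28% and 6.21% were called higher at these days. mmu-miR-122-5p, the major liver miRNA, passed as lower at days 2 and 5 (-1.69 and -1.74) and did not pass at month 1 (-0.55 ± 0.22, adjusted p = 0.141). It passed as higher from month 2 to month 5, with differences of 1.36, 1.47, 2.97 and 3.23, and was at 1.10 ± 0.44 at month 6 (adjusted p = 0.408). The summed level of the 4 at month 1 was 3232 to 103535 CPM in shams (median 7505) and 6046 to 24674 CPM in irradiated mice (median 9065). At month 5 it was 3534 to 11593 CPM in shams (median 6697) and 5543 to 194532 CPM in irradiated mice (median 23660). With group means removed, its correlation with miR-216a-5p was 0.216 over 497 C57Bl/6 samples and 0.193 over 402 C3H samples. In the same C57Bl/6 samples the summed level of the other pancreas miRNA gave -0.244. That sum had C57Bl/6 group medians of 14784 to 62641 CPM, while miR-375-3p had a mean of 1148 CPM over all samples. The most abundant of the 5 therefore weigh most in the value, and it does not describe the 5 one by one. The leukocyte list gave 0.113, the red blood cell list -0.105 and the muscle and heart list -0.108. The part of any of these in the result was not tested. In irradiated C57Bl/6 mice of months 1 to 6, 0 or 1 of the 5 miRNA each of the leukocyte and muscle and heart lists and 0 of the 5 red blood cell miRNA were called. Those called were higher, in months with the shares given above.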

How the data were processed

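Small RNA of mouse plasma was sequenced from QIAseq miRNA libraries, and the authors counted miRNA with the Illumina BaseSpace Small RNA application on mm10 (build per the submitters' processing notes). The values the authors deposited are raw read counts per miRNA and sample; the miRBase release and any use of molecular identifiers are not given in the sources used here. Groups of strain, treatment and time came from the sample labels. The labels' mouse number ties samples to an animal, and the main fit has no term for the animal, so its tests treat repeat samples of a mouse as independent; the animal entered as a block in alternatives only. The consensus within-mouse correlation was 0.0434 over all miRNA. From month 1, the mean product of standardized deviations over pairs of samples of the same irradiated C57Bl/6 mouse was 0.412 for miR-216a-5p and 0.331 for miR-217-5p.

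Counts of 1915 miRNA were filtered by group (filterByExpr, 483 kept, 99.99% of reads), scaled by TMM (factors 0.372 to 1.59) and tested with the edgeR 4.0.16 quasi-likelihood test in R 4.3.3, in 1 fit of 899 samples and 32 groups (867 residual degrees of freedom). Benjamini-Hochberg adjustment ran over all 483 miRNA within a comparison, and an adjusted p under 0.05 was called. SE is the absolute log2 difference divided by the square root of F. log2 CPM used a prior count of 2. The limits from 3 counts cover counting error only. Total reads per sample were 206490 to 11814515, so 1 read is a larger CPM in shallow samples. No sample columns were identical. Sequences and their positions are from RefSeq, and overlapping genes from the GENCODE annotation of the same build.

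The members and lists were chosen with earlier results of these data known. Named miRNA were the 3 members, their other arms and miR-216c, the 5 miRNA most alike to each member, and listed miRNA of other tissues where a result turned on them. Alternatives were limma-voom (limma 3.58.1), DESeq2 1.42.0, other scaling, filters, samples and covariates, permutation tests, and the mouse as a random or fixed replicate block. On counts simulated for C57Bl/6 at month 1 (477 miRNA tested), 74% of 100 miRNA changed by log2 1 and 100% of 99 changed by log2 2 were recovered, with 3.33% false calls. Simulated samples were independent, with no mouse effect, and only the irradiated C57Bl/6 group of month 1 was changed. Rates for smaller groups or for repeat samples of a mouse were not simulated.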

Additional observations from a re-analysis of the deposited data

Results flagged for a closer look

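The lowest of the 8 irradiated C57Bl/6 samples at month 6 stood apart for miR-216a-5p. It had 0 reads, and its gap to the next sample was 0.765 of the group's range on the log2 CPM scale, beyond the limit of 0.526 for 8 samples. Chance flags about 1 in 20 groups, and 3 were looked at, since this was the only group of 4 to 10 samples. Without that sample the month 6 difference was 3.25 for miR-216a-5p and 4.10 for miR-217-5p.

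The irradiation effect differed between C57Bl/6 and C3H for each of the 3 miRNA in the test of the difference itself over 6 shared time points. The adjusted p from the edgeR test was 1.54e-20 for miR-216a-5p, 1.07e-06 for miR-216b-5p and 0.000292 for miR-217-5p.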

How the results depend on the processing

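Of 1042 values recomputed under other settings, 975 stayed on their side of the threshold, 65 of them, called in neither fit, with a changed sign, and 0 called values changed sign. miR-216a-5p of C57Bl/6 at months 1 to 6 was called in 103 of 105 alternatives (log2 0.57 to 3.25), the exceptions both at month 5: only the 2 groups compared (1.41, adjusted p = 0.0986) and only females (0.57). DESeq2 also called day 2 (1.16, adjusted p = 0.0305) and day 5 (1.19, adjusted p = 0.0194), and quantile normalization day 5 (0.96, adjusted p = 0.0357). For miR-216b-5p before irradiation, C57Bl/6 minus C3H was no longer called with limma-voom (-0.22), quantile normalization (-0.23), no filter (-0.96), limma-voom with the random replicate block (-0.23), only cohort 2 (-0.64), only females (-0.81), only males (-1.37) or DESeq2 (-0.94). With the fixed replicate block, also in limma-voom, the adjusted p was 0.173 for irradiation over all times in miR-216b-5p and 0.432 for the strain difference in miR-217-5p; the number of time points called for miR-216b-5p was then 1 in C3H (0 without) and 1 in C57Bl/6 (3 without). Those C57Bl/6 calls for miR-216b-5p numbered 5 with no filter, 1 in only males and 0 with quantile normalization, where its strain difference had an adjusted p of 0.175. For miR-217-5p the time points called fell from 5 to 2 in only females and 1 in only males, with an adjusted p of 0.290 for the strain difference in only males and 0.109 for irradiation over all times in only cohort 2. Subsets hold fewer samples; otherwise the cause was not tested. Chosen after seeing the data, leaving out the irradiated sample with most reads kept every miR-216a-5p call (1.46 to 2.95), and leaving out the month 6 sample with 0 reads gave a call for miR-216b-5p (3.0, adjusted p = 0.0347). DESeq2 gave no adjusted p for 11 values. Depth limits miR-216b-5p most.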
